A study of Mus musculus with 5 samples.

Results

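A set of 10 genes of megakaryocytes and platelets was followed through loss of Mll1 in mouse myeloid progenitor cells. They were taken from the deposited tables by gene name (Pf4, Ppbp, Gp1bb, Gp9, Vwf, Nfe2, Plek, Mrvi1, Rab27b and F2r) and cover platelet glycoproteins, granule proteins and signalling genes apart from integrins. All 10 were found, of 31626 genes in each file. The cells were common myeloid progenitors of C57Bl/6 strain, Mll1 flox/flox, transformed with the retroviral vector MSCV-MN1-IRES-GFP, which expresses the leukaemia cofactor MN1. The control group (3 libraries) received a control vector, and the knockout group (2 libraries, labelled MLL1 -/-) received Cre recombinase. Both groups were grown in M3234 medium with FBS, IL3, IL6 and SCF and sorted 7 days after induction. Nothing in the labels states that replicates are separate mice or cultures, so p-values reflect the spread between these libraries alone, and that spread may be technical. Cre was given only to the knockout group, so exposure to Cre and loss of Mll1 cannot be told apart.

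Megakaryocytes are the large marrow cells that shed platelets. On platelets, the glycoprotein complex of GPIb and GPIX, to which Gp1bb and Gp9 contribute subunits, binds von Willebrand factor (Vwf) in a damaged vessel wall, and the thrombin receptor F2r triggers activation in many cell types. Platelet granules hold the chemokines encoded by Pf4 and Ppbp, and the transcription factor NFE2, paired with a small MAF protein, drives the last steps of platelet formation. MLL1 (Kmt2a) is a histone H3 lysine methyltransferase that maintains gene expression in blood stem and progenitor cells.

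The upstream sequences of 4 members are given as a description, and no result rests on these sequences. Plek was the member that passed the test, Mrvi1 had the largest ratio between the group means, and Pf4 and Ppbp are neighbours on 1 strand with very different levels. Each is the 250 bases before a transcription start, 5′ to 3′ on the gene's strand, from RefSeq on GRCm38.p6, which is not the mm9 build of the files. Regions are chr11:17008719-17008968 (minus strand) for Plek, chr7:110982462-110982711 (minus strand, the outer of its 2 starts in the table) for Mrvi1, chr5:90772185-90772434 (plus strand) for Pf4 and chr5:90768268-90768517 (plus strand) for Ppbp. In the GENCODE M21 annotation of GRCm38, Plek spans chr11:16971206-17052381. Its stretch therefore lies inside the gene and not before its outer 5′ end. Capitals mark exact matches, on either strand, to the words searched.
Plek: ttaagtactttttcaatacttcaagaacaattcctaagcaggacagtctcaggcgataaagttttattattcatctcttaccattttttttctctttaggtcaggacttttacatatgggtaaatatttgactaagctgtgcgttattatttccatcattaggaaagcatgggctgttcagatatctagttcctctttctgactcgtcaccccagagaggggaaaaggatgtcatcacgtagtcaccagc
Mrvi1: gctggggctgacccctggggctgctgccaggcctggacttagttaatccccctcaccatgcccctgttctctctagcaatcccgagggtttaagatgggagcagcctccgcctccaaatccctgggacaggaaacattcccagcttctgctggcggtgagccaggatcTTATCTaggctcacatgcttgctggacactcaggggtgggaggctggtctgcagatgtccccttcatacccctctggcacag
Pf4: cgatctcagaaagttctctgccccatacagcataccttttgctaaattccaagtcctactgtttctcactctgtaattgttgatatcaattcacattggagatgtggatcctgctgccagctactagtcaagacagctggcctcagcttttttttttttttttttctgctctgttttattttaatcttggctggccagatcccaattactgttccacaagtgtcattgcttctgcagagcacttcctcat
Ppbp: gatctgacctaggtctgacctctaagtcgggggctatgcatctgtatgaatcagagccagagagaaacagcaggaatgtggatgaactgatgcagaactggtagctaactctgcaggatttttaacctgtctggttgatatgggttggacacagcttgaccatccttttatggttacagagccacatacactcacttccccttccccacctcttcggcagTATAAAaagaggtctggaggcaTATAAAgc
The words searched began with TGAGTCA, the core shared by the AP-1 factors and by NF-E2. For GATA factors AGATAA was searched, and so was TGATAA as another spelling of their site, followed by AGATAG as a further spelling, with TGATAG completing that family of words. For ETS factors the search used CAGGAAG as one spelling of the site, together with CCGGAAG as the other spelling. RUNX factors were represented by TGTGGT alone. The TATA box word TATAAA was added after the sequences had been seen. The capitals in Mrvi1 are AGATAA read on the other strand, 82 bases before the start, a word found in 9.99% of all 32851 upstream stretches of the same length; any of the 4 GATA words was found in 26.5%. Those in Ppbp are 2 TATAAA words, beginning 30 and 8 bases before the start (12.4% of stretches). The Plek and Pf4 stretches held none of the words. Of the other members searched, F2r held TGAGTCA 204 bases before its start (4.46% of stretches). Gp1bb held TGATAG on the other strand at 22 bases (6.35%), and F2r and Gp9 each held TGTGGT on the other strand (14.0%). No matches overlapped. The search covered 7 of the 10 members, and Nfe2, Vwf and Rab27b were not searched.

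FPKM, the deposited unit, divides fragments by gene length and by sequencing depth, so levels can be compared between genes. The files give no counts, and absolute depth is unknown. Judged by the steps between values of low genes, 1 read was worth 0.978 to 1.017 times as much in the other libraries as in control replicate 1, and between 11172 and 11550 genes reached 1 FPKM per library. Control replicate 1 stood apart from the other controls. Its median distance from the mean of the others was 0.221 on the log2(FPKM + 1) scale over all genes, against 0.149 and 0.133 for control replicates 2 and 3. The targeted gene Mll1 stood at 9.67, 7.28 and 7.19 FPKM in control cells, against 6.22 and 5.32 FPKM in knockout cells (two-sided exact permutation p = 0.1, the smallest that 10 splits allow; limma adjusted p = 0.158). The labels do not say which exons are floxed.

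The 10 genes spanned a wide range of levels. In the controls Plek was highest at a mean of 88.3 FPKM, followed by Nfe2 (49.6), F2r (30.4), Pf4 (12), Rab27b (5.66), Gp9 (2.47), Mrvi1 (1.82), Ppbp (0.327), Vwf (0.316) and Gp1bb (0.191). Neighbours in this order overlapped in their ranges from Pf4 to Mrvi1 and between Ppbp and Vwf. In the knockouts Nfe2 (60.6 FPKM) and Plek (59.4 FPKM) overlapped at the top, Mrvi1 was last at 0.133 FPKM, and the remaining pairs of neighbours that overlapped were Rab27b with Pf4, Vwf with Gp1bb and Gp1bb with Ppbp. Of 12 defining markers of megakaryocytes, 7 were below 1 FPKM in every library. The collagen receptor gene Gp6 was listed at 0 throughout, and the platelet tubulin gene Tubb1 was at most 0.0822 FPKM. The summed level of these 12 genes was 66.4 to 85.5 FPKM in the controls and 40.8 to 50.6 FPKM in the knockouts. Itga2b and Slc35d3 made up 67.7% to 79.2% of each sum, so it says little of the other markers. Gp5 was higher in both knockouts than in every control. By the test described below, 1 of the 4 markers tested was called, and it fell (9.79% of all genes were called).

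**Figure D1:**
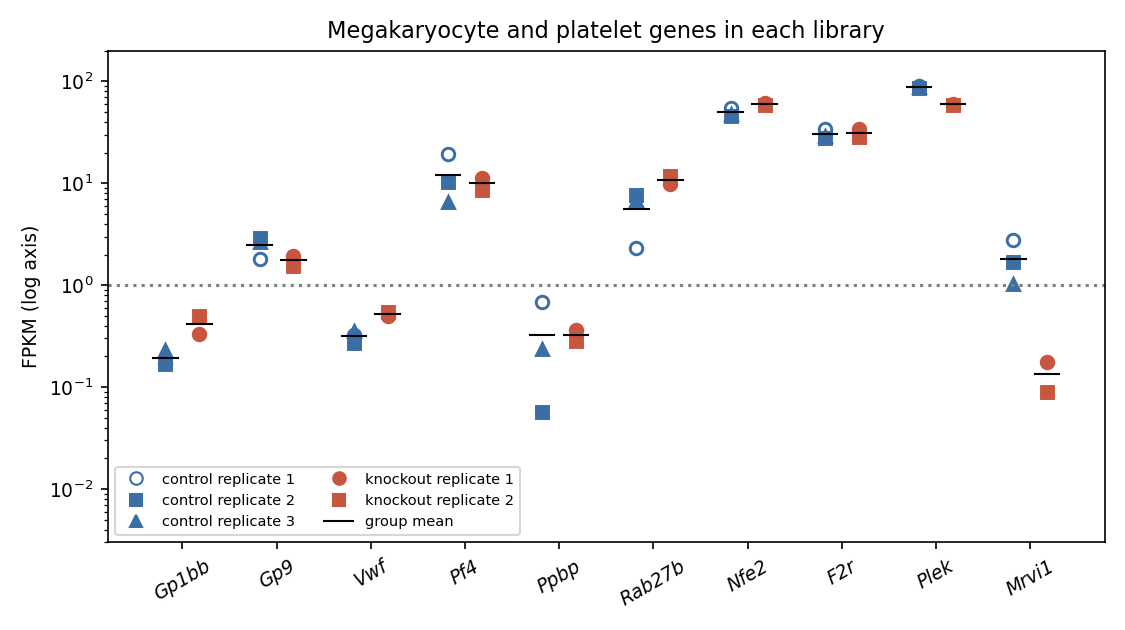
FPKM of the 10 genes in each library on a log axis, with controls in blue, knockouts in red, the symbol giving the replicate number, a bar for each group mean and a dotted line at 1 FPKM. Plek and Mrvi1 lay lower in both knockouts than in every control, and control replicate 1 (open circles) lay apart from the other controls for Pf4 and Rab27b.

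The test was limma on log2(FPKM + 1) over the 11780 genes that reached 1 FPKM in 2 or more libraries, with p-values adjusted by Benjamini-Hochberg, and calls were made below an adjusted p of 0.05. Of the 10 members 7 passed this filter, and Gp1bb, Ppbp and Vwf did not. Mrvi1 passed it through the controls alone, so it entered the test by the group in which it was high. A single member, Plek, was called, and it fell. Over all genes tested, 9.79% were called, 3.82% upward and 5.97% downward, so 1 of 7 is near the background. The median change of the 7 was -0.13, against -0.03 over all genes tested, which describes these members only. Of all 10 members, 2 were lower in both knockouts than in every control (Plek and Mrvi1), 4 were higher (Nfe2, Rab27b, Vwf and Gp1bb) and 4 overlapped, and among the 22571 genes above 0 in at least 1 library 37.8% did not overlap (15.9% higher, 22.0% lower). Of the 7 tested members 4 did not overlap, against 52.4% of the genes tested (22.9% higher, 29.4% lower). In these bulk samples, fewer cells of a type and less RNA per cell cannot be told apart. Without control replicate 1, 4 of the 7 were called: Plek and Mrvi1 fell and Nfe2 and Rab27b rose, against 29.8% of all genes called in that fit (11.9% upward, 18.0% downward). With library weights, which gave control replicate 1 the least weight, 4 of the 7 were called (Gp9, Plek and Mrvi1 fell, Nfe2 rose) against 37.3% of all genes.

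The subunits of the von Willebrand factor receptor were low. Gp9 (chr6:87778072-87779768 on GRCm38, plus strand), the small GPIX subunit, stood at 1.82, 2.92 and 2.65 FPKM in control cells, against 1.95 and 1.54 FPKM in knockout cells. The groups overlapped through control replicate 1, the lowest control. The log2 change was -0.33 (SE 0.188, 95% interval -0.81 to 0.15; limma adjusted p = 0.308), and without control replicate 1 it was -0.47 (adjusted p = 0.0548). Gp1bb (chr16:18620317-18622403, minus strand), the beta chain of GPIb, stood at 0.171, 0.170 and 0.232 FPKM in control cells, against 0.334 and 0.502 FPKM in knockout cells. Both knockouts were above every control, and with no filter on low values its limma adjusted p was 0.14. In GENCODE M21 (GRCm38), Sept5 on the same strand shares 91.1% of the exonic bases of Gp1bb. Sept5 stood at 2.07, 0.348 and 0.413 FPKM in control cells, against 2.68 and 2.52 FPKM in knockout cells, so how reads were divided between them is uncertain.

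The rest of that receptor was low as well. Gp1ba, the alpha chain that carries the binding site, stood at 1.99, 1.89 and 1.42 FPKM in control cells, against 1.68 and 1.49 FPKM in knockout cells (adjusted p = 0.719). Gp5, the GPV subunit, was below the filter at 0.547 ± 0.0561 FPKM (SD, n = 3) and 0.832 ± 0.280 FPKM (SD, n = 2). The ligand gene Vwf (chr6:125546774-125686679, plus strand) stood at 0.323, 0.271 and 0.353 FPKM in control cells, against 0.499 and 0.550 FPKM in knockout cells. Both knockout values of Vwf were above every control, at a level below 1 FPKM, and with no filter its adjusted p was 0.112. Vwf is also a gene of endothelial cells; of 12 endothelial markers, 11 were below 1 FPKM in every library, Emcn was listed at 0, and the summed level, nearly all Flt1, was 25.1 to 32.4 FPKM in controls and 22.6 to 25.1 FPKM in knockouts.

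The platelet chemokine genes differed from each other in level by more than an order of magnitude. Pf4 (platelet factor 4, chr5:90772435-90773383, plus strand) stood at 19.2, 10.2 and 6.54 FPKM in control cells, against 11.4 and 8.56 FPKM in knockout cells. Both knockout values lay inside the range of the controls, which control replicate 1 widened. The log2 change of Pf4 was -0.13 (SE 0.429, 95% interval -1.23 to 0.96; adjusted p = 0.863), and without control replicate 1 its sign turned, at 0.24 (adjusted p = 0.497). The summed level of 11 monocyte and macrophage markers was also high in control replicate 1. It was 495 FPKM there, 107 and 102 FPKM in the other controls and 407 and 344 FPKM in the knockouts. Lyz2 and F13a1 made up 80.2% of it in control replicate 1 and 43.4% and 53.9% in control replicates 2 and 3. In the knockouts they made up 90.2% and 87.3%, so the sum says little of the other markers. F13a1 was also listed among the granule content genes of platelets. The part of these markers in the Pf4 values was not tested. Ppbp (pro-platelet basic protein, chr5:90768518-90770063, plus strand) stood at 0.690, 0.0571 and 0.234 FPKM in control cells, against 0.366 and 0.282 FPKM in knockout cells. The groups overlapped, and with no filter its adjusted p was 0.96.

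Pf4 and Ppbp lie next to each other, 2371 bases apart on GRCm38 with no annotated gene between them, inside a cluster of CXC chemokine genes. Of the 5 other genes of this cluster that were listed, Cxcl2 alone passed the filter, at 7.04, 1.66 and 3.92 FPKM in control cells, against 1.55 and 3.02 FPKM in knockout cells (adjusted p = 0.507). Cxcl3 stood at 0.824 ± 0.672 FPKM (SD, n = 3) and 0.902 ± 0.0207 FPKM (SD, n = 2). Cxcl1, Cxcl5 and Cxcl15 were at most 0.0697 FPKM in any library. Control replicate 1 held the highest value of Pf4, Ppbp, Cxcl2 and Cxcl3.

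Rab27b encodes a small GTPase that moves secretory granules to the cell membrane in platelets and in mast cells. It stood at 2.31, 7.74 and 6.91 FPKM in control cells, against 9.87 and 11.9 FPKM in knockout cells. Both knockouts were above every control, and control replicate 1 was far below the other controls. The log2 change was 0.95 (SE 0.454, 95% interval -0.21 to 2.11; adjusted p = 0.234). Without control replicate 1 it was 0.51 and Rab27b rose (adjusted p = 0.0438). The summed level of 12 mast cell and basophil markers, 9 of which reached 1 FPKM and none of which was at 0 in every library, took the same order: 727 FPKM in control replicate 1, 991 and 898 FPKM in the other controls and 1454 and 1484 FPKM in the knockouts. Cpa3 and Hdc made up 80.0% to 84.7% of each sum, and 3 of the 9 tested rose (3.82% of all genes did). Among the controls, Cpa3, Gzmb, Tpsb2, Cma1, Mcpt4 and Il1rl1 were lowest in control replicate 1. Hdc and Ms4a2 were highest there, and Mcpt8 lay between the other controls. The part of these markers in the Rab27b values was not tested. Rab27a, the close relative used by lysosome-related granules, stood at 37.4, 35.0 and 34.9 FPKM in control cells, against 34.4 and 39.2 FPKM in knockout cells (adjusted p = 0.813).

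Nfe2 (chr15:103248212-103258403 on GRCm38, minus strand) was among the more abundant members, at 54.7, 45.8 and 48.2 FPKM in control cells, against 62.1 and 59.1 FPKM in knockout cells. Both knockouts were above every control. The log2 change was 0.29 (SE 0.099, 95% interval 0.03 to 0.54), and it was not called (adjusted p = 0.131). Without control replicate 1 Nfe2 rose, by 0.36 (adjusted p = 0.0206), and after quantile normalization the change was 0.25 (adjusted p = 0.283). Erythroid cells use Nfe2 too: the summed level of 15 erythroid markers was 153 to 178 FPKM in the controls and 181 to 200 FPKM in the knockouts, 11 of the 15 reached 1 FPKM and none was at 0 in every library. Most of the sum was Tfrc (93.6 to 118 FPKM and 128 to 138 FPKM), which is not particular to erythroid cells. Of the 10 tested 3 rose (Alas2, Klf1 and Car1), and 3.82% of all genes rose. Alas2 stood at 1.03, 0.78 and 0.558 FPKM in control cells, against 4.45 and 4.11 FPKM in knockout cells (limma adjusted p = 0.0135). Among the controls only control replicate 1 reached 1 FPKM, so Alas2 passed the filter through the knockouts and its call is without support. Car1 reached 1 FPKM in the knockouts alone and so entered the test by the group in which it was high. That leaves the call of Car1 without support. The globin gene Hba-a1 was highest in control replicate 1 at 13.9 FPKM. The part of these markers in the Nfe2 values was not tested.

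Of the 7 partners, relatives and competitors of NFE2 tested, limma called 0, with 2 at an unadjusted p under 0.05 (29.8% of all genes were), and their median was 0.11. Without control replicate 1, 3 of the 7 were called (1 rose, 2 fell), against 29.8% of all genes called in that fit. Among them were Mafg (adjusted p = 0.0399) and Maff (adjusted p = 0.0134). The small MAF gene Mafg stood at 30.9, 22.6 and 23.8 FPKM in control cells, against 32.5 and 28.5 FPKM in knockout cells (adjusted p = 0.353). Mafk stood at 32.3 ± 1.96 FPKM (SD, n = 3) and 30.6 ± 0.894 FPKM (SD, n = 2), with an adjusted p of 0.593. Bach1, a repressor that competes for the same small MAF proteins, had an adjusted p of 0.574, and Bach2 was below the filter. Maff, the remaining small MAF, stood at 15.0 ± 3.43 FPKM (SD, n = 3) and 8.84 ± 0.0515 FPKM (SD, n = 2) (adjusted p = 0.0922). None of the 3 small MAF genes was called with all libraries.

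Plek (chr11:16971206-17052381 on GRCm38, minus strand) encodes pleckstrin, the major protein that protein kinase C phosphorylates in platelets, which is also abundant in other myeloid cells. It stood at 89.6, 87.1 and 88.1 FPKM in control cells, against 59.9 and 59.0 FPKM in knockout cells. The groups were far apart relative to their spread, and the 3 controls lay close together. Plek fell by 0.56 on the log2 scale (SE 0.065, 95% interval -0.73 to -0.40; limma adjusted p = 0.0162), and the control mean was 1.49 times the knockout mean. The change was -0.55 without control replicate 1 (adjusted p = 0.00653). Leaving out any other library kept a change of -0.57 to -0.55. Without control replicate 2 or 3 Plek was not called (limma adjusted p = 0.0665 and 0.0625), but calls fell over the whole table too. Over all genes 45 rose and 66 fell without control replicate 2, and 70 rose and 134 fell without control replicate 3. With all libraries 450 rose and 703 fell, so the lost call is not particular to Plek. With 1 knockout library left out, that group had no spread of its own, so only the change is given. Cnrip1, on the opposite strand, shares 4.44% of the exonic bases of Plek and was at most 2.86 FPKM.

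The summed level of 12 mature neutrophil markers was 789 to 6399 FPKM in control cells, against 20676 and 22410 FPKM in knockout cells; 11 reached 1 FPKM and none was at 0 in every library, and 1 of the 10 tested, Lcn2, rose. S100a8 and S100a9 made up 98.1% and 98.0% of the knockout sums and 80.8% to 94.8% of the control sums. Camp, Ngp and Ltf were highest in control replicate 1, at 42.9, 106 and 4.67 FPKM, and Mmp8 had a log2 change of -0.03 (adjusted p = 0.953). The summed monocyte markers given beside Pf4 overlapped between the groups through control replicate 1 alone, and 1 of the 6 tested, Ccr2, fell from 17.4, 19.2 and 15.9 FPKM to 5.93 and 6.59 FPKM (adjusted p = 0.00852). The part of these cells in the fall of Plek was not tested. The paralogue Plek2 was at most 0.0753 FPKM in any library.

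F2r (chr13:95601803-95618487 on GRCm38, minus strand), which encodes the thrombin receptor PAR1, stood at 34.0, 28.0 and 29.3 FPKM in control cells, against 34.2 and 28.8 FPKM in knockout cells, with overlapping groups. The log2 change was 0.05, with a 95% interval of -0.27 to 0.37 (adjusted p = 0.822). F2rl3 encodes PAR4, the main signalling thrombin receptor of mouse platelets, and stood at 18.3, 13.6 and 12.5 FPKM in control cells, against 12.1 and 9.97 FPKM in knockout cells (adjusted p = 0.241). F2rl2, the cofactor receptor PAR3, stood at 7.95, 7.20 and 8.46 FPKM and at 5.55 and 6.19 FPKM (adjusted p = 0.0913). For both, each knockout was below every control, and neither passed the test. F2rl1 (PAR2) was below the filter at 0.279, 0.227 and 0.354 FPKM in control cells, against 0.0682 and 0.0683 FPKM in knockout cells.

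Mrvi1 had the largest ratio between group means among the members and missed the threshold. The gene (also called IRAG; chr7:110868266-110982461 on GRCm38, minus strand) encodes an endoplasmic reticulum protein through which cyclic GMP-dependent kinase restrains calcium release in smooth muscle and platelets. It stood at 2.75, 1.69 and 1.03 FPKM in control cells, against 0.177 and 0.089 FPKM in knockout cells, so the control mean was 13.7 times the knockout mean. The groups did not overlap, and the controls themselves ran from 1.03 to 2.75 FPKM. The log2 change was -1.27 (SE 0.285, 95% interval -2.0 to -0.54) with a limma adjusted p of 0.056. The value follows the pseudocount at these levels: it was -2.97 with a pseudocount of 0.1 (adjusted p = 0.0355) and -0.40 with a pseudocount of 5 (adjusted p = 0.0867). Without control replicate 1 the change was -1.05 (adjusted p = 0.0271). Since no knockout library reached 1 FPKM, the gene was tested only because the controls were high, and these p-values are no support for a difference. The number of reads behind these values is unknown, and 1.58% of its exonic bases lie under an antisense gene, Gm16336.

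Among genes that act with Mrvi1, the kinase gene Prkg1 was below the filter at 0.323, 0.201 and 0.139 FPKM in control cells, against 0.0565 and 0.0486 FPKM in knockout cells, where both were below every control. Itpr1, the calcium channel it is bound to, stood at 14.2 ± 0.591 FPKM (SD, n = 3) and 13.6 ± 0.0169 FPKM (SD, n = 2), with an adjusted p of 0.671. Lrmp, the related gene of lymphoid and myeloid cells, was far more abundant at 61.5 ± 5.12 and 66.3 ± 3.14 FPKM (adjusted p = 0.495). Of 12 genes of the nitric oxide and cyclic GMP axis 6 were tested and limma called 0, with 2 at an unadjusted p under 0.05 (29.8% of all genes were). Without control replicate 1, 2 of the 6 were called, against 29.8% of all genes called in that fit. Itpr3 fell (adjusted p = 0.0107) and Lasp1 rose (adjusted p = 0.0357). The soluble guanylate cyclase genes Gucy1a3 and Gucy1b3 were at most 0.163 FPKM in any library.

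**Figure D2:**
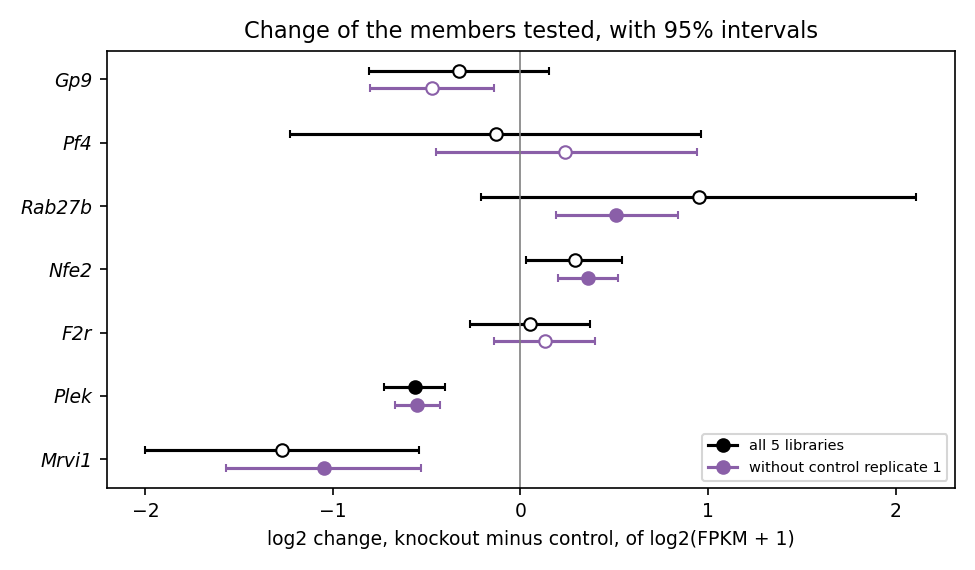
Change in log2(FPKM + 1) from control to knockout for the 7 members tested, with unadjusted 95% intervals, from all 5 libraries (black) and without control replicate 1 (purple); filled points were called at an adjusted p under 0.05. Plek had the narrowest interval, -0.73 to -0.40, and Pf4 changed sign between the fits.

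Among other megakaryocyte and platelet genes, 11 lists held 177 genes besides the members, of which 131 were tested. Of these 21 rose and 14 fell, which is 26.7% called against 9.79% of all genes; the lists were chosen with earlier results of these data known. After median-ratio scaling 28 rose and 13 fell, beside 597 and 621 of the 11780 genes tested. Without control replicate 1, 39 rose and 26 fell, beside 11.9% and 18.0% of all genes in that fit.

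Surface receptors had 2 of 13 that rose and 1 that fell, beside 3.82% and 5.97% of all genes tested. Ptgir, the prostacyclin receptor that restrains platelets, rose from 4.19 ± 0.347 FPKM (SD, n = 3) to 7.09 ± 0.118 FPKM (SD, n = 2; adjusted p = 0.0279). P2rx1, an ATP-gated channel, stood at 7.74, 7.57 and 5.91 FPKM in control cells, rose to 11 and 12.2 FPKM with Cre and just passed the threshold (adjusted p = 0.0495). The tetraspanin gene Cd9 fell from 41.9 ± 1.57 to 22.6 ± 1.15 FPKM (adjusted p = 0.0106). Of 5 integrin genes tested, 2 fell: Itgb3, the beta chain of the fibrinogen receptor, from 19.7 ± 1.30 to 6.72 ± 0.0869 FPKM (adjusted p = 0.00522), and the laminin receptor chain Itga6 from 17.4 ± 1.18 to 6.74 ± 0.124 FPKM (adjusted p = 0.00725). Itga2b, the alpha chain that pairs with Itgb3, stood at 46.3, 37.6 and 29.1 FPKM in control cells, against 25.2 and 20.7 FPKM in knockout cells, with no overlap, and was not called (adjusted p = 0.11).

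Of 8 granule content genes tested, 2 rose: F5, coagulation factor V, from 0.396 ± 0.0588 to 1.74 ± 0.111 FPKM (adjusted p = 0.023), and Srgn, the proteoglycan core that holds granule proteins, from 1001 ± 27.1 to 1405 ± 10.2 FPKM (adjusted p = 0.0498). F5 reached 1 FPKM in the knockouts alone and so entered the test by the group in which it was high, which leaves its call without support. The adhesion receptor gene Selp (P-selectin) was at most 0.295 FPKM. Of 24 genes of granule formation and release, 2 rose and 2 fell, beside 3.82% and 5.97% of all genes tested. Rab38, a GTPase of dense granule formation, fell from 81.8 ± 3.74 to 31.0 ± 0.934 FPKM (adjusted p = 0.0044), while Rab32, its close relative, rose from 20.5 ± 4.0 to 42.9 ± 3.31 FPKM (adjusted p = 0.0294). Slc35d3, required for platelet dense granules, fell from 22.0 ± 4.48 to 8.23 ± 1.15 FPKM (adjusted p = 0.0246). Nbeal2, required for alpha granules, rose from 8.68 ± 0.308 to 13.1 ± 0.917 FPKM (adjusted p = 0.0285). Sytl4, a RAB27 effector, was listed at 0 in every library.

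Transcription factors of the lineage split. Of 13 tested, 3 rose (Gata1, Gata2 and Lyl1) and 2 fell (Gfi1b and Etv6), beside 3.82% and 5.97% of all genes tested. Gata1, which drives megakaryocyte and erythroid genes, rose from 9.43 ± 0.506 to 14.4 ± 0.344 FPKM (adjusted p = 0.025), beside the erythroid marker sums given above. Gfi1b, a repressor needed for platelet production, fell from 15.5 ± 2.11 to 8.27 ± 1.32 FPKM (adjusted p = 0.038). Lyl1 rose from 29.6 ± 2.77 to 43.9 ± 1.77 FPKM (adjusted p = 0.0372), and Etv6 fell from 66.7 ± 0.951 to 51.5 ± 1.57 FPKM (adjusted p = 0.0376). Fli1 (adjusted p = 0.981), Runx1 (adjusted p = 0.111) and Zfpm1 (adjusted p = 0.596) were not called.

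Signalling downstream of thrombin and of activating receptors had members in both directions. Of 24 genes of thrombin signalling, 4 rose and 4 fell, beside 3.82% and 5.97% of all genes tested. Among the protein kinase C genes, whose products phosphorylate pleckstrin, Prkcb rose from 2.80 ± 0.524 to 11.5 ± 0.0569 FPKM (adjusted p = 0.00853) and Prkcd from 41.8 ± 0.686 to 70.7 ± 0.267 FPKM (adjusted p = 0.01), while Prkca fell from 13.1 ± 1.14 to 8.80 ± 0.241 FPKM (adjusted p = 0.0417). Rgs10, a brake on G protein signalling, fell from 27.1 ± 1.06 to 11.8 ± 0.222 FPKM (adjusted p = 0.00618). Of 16 activation adaptors and kinases, 3 rose and 2 fell, among them Lcp2, the adaptor SLP-76, from 14.4 ± 2.21 to 32.6 ± 2.41 FPKM (adjusted p = 0.0189) and the kinase gene Fyn, which fell from 21.2 ± 3.99 to 5.47 ± 0.428 FPKM (adjusted p = 0.0131). The neutrophil marker sums given beside Plek, mostly S100a8 and S100a9, were higher in both knockouts, and their part in these changes was not tested.

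Of 14 cytoskeletal genes 5 rose and 1 fell, with a median of 0.31. Of all genes tested 3.82% rose and 5.97% fell, with a median of -0.03. Actn1, an actin crosslinker, rose from 13.7 ± 2.72 to 36.0 ± 1.81 FPKM (adjusted p = 0.0185). Tuba4a, an alpha tubulin gene of platelets, rose from 269 ± 16.9 to 507 ± 14.1 FPKM (adjusted p = 0.0136), and Wdr1, which assists actin turnover, from 80.5 ± 5.60 to 122 ± 2.67 FPKM (adjusted p = 0.0238). Tpm4, a tropomyosin gene, fell from 36.9 ± 10.6 to 16.2 ± 1.67 FPKM (adjusted p = 0.0496).

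**Figure D3:**
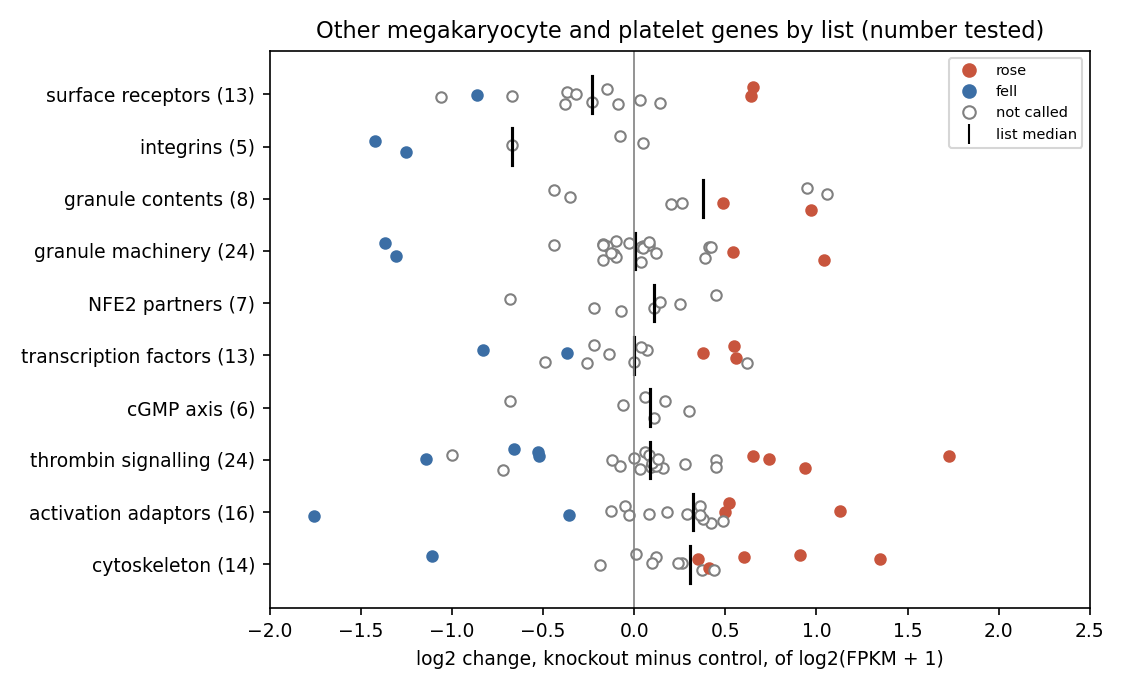
Change in log2(FPKM + 1) from control to knockout of every tested gene in 10 lists of other megakaryocyte and platelet genes, with rises in red, falls in blue, genes not called open, and a black bar at each list's median. Calls lie on both sides of 0 in 6 of the 10 lists, and the integrin list has the lowest median, -0.67.

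Of the members, 3 spanned more than 1 on the log2(FPKM + 1) scale across the 5 libraries, and the tested genes nearest to them in profile were sought by the root mean square difference of centred log2 values. Nearest to Pf4 were Syngr1 (0.104) and Lgals3 (0.144), which also peaked in control replicate 1, at 45.4 and 65.9 FPKM. Nearest to Mrvi1 were Plod2 (0.083) and the actin-severing gene Gsn (0.108). Plod2 stood at 17.1, 10.6 and 8.71 FPKM in control cells, against 3.90 and 3.79 FPKM in knockout cells. Nearest to Rab27b were Tmem141 (0.148) and the lamin gene Lmna (0.152), both lowest in control replicate 1, at 4.41 and 3.58 FPKM. Likeness over 5 libraries is a description, since these genes were picked for it from the whole table.

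**Figure D4:**
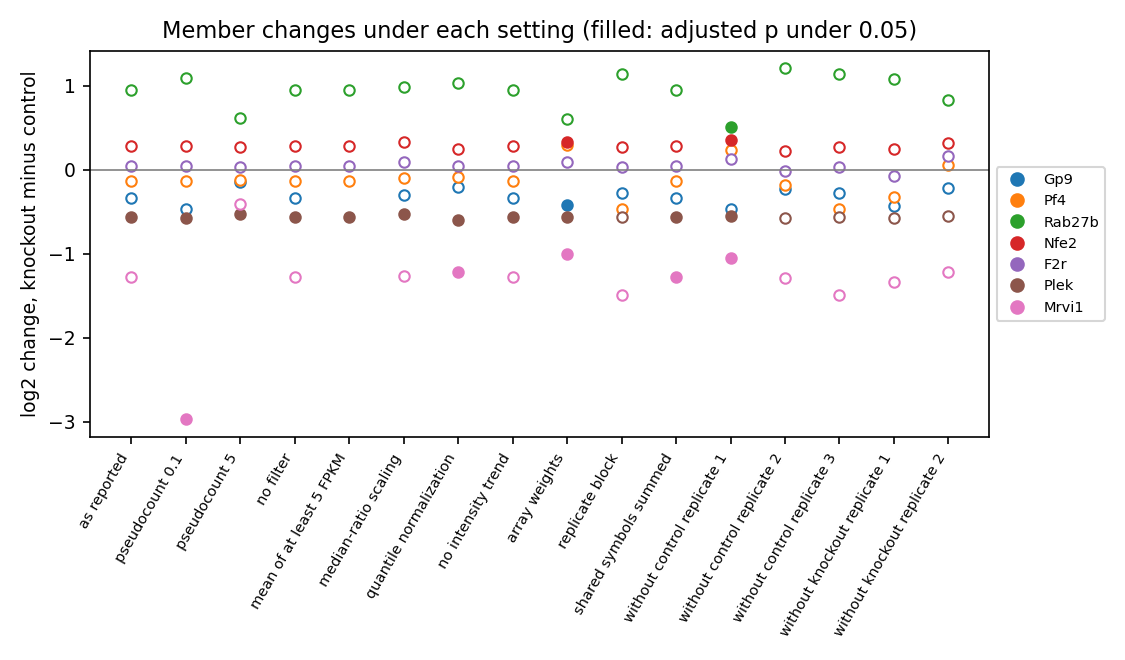
Change in log2(FPKM + 1) from control to knockout of each tested member under the fit as reported and 15 alternatives; filled points had an adjusted p under 0.05, and Gp9 and Mrvi1 have no point at a mean of at least 5 FPKM. Plek stayed between -0.60 and -0.53, Mrvi1 lay between -2.97 and -0.40, and Pf4 lay on both sides of 0.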

How the data were processed

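Gene expression was measured by RNA sequencing of stranded mRNA libraries in 5 samples, 3 control and 2 knockout. The authors deposited FPKM values, 1 per Ensembl gene and library. Per the submitters' processing notes, CASAVA 1.8.2, GSNAP, SAMtools and Cuffdiff were used with build mm9. The annotation, handling of reads with several matches and use of strand were not given in the sources used here. A total of 16 genes with a failed estimate (999999999) in any library were left out.

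The 11780 genes that reached 1 FPKM in 2 or more libraries entered limma 3.58.1 (R 4.3.3), fitted to log2(FPKM + 1) with a trend in the variance prior and Benjamini-Hochberg adjustment over all of them; this scale understates changes of low genes. On data simulated for this comparison (200 of 11780 genes changed, 10 runs), 68.8% of genes shifted by log2 1 and 93.4% of genes shifted by log2 2 were recovered, and 5.55% of calls were false. The simulation gave every library the same spread for a gene, whereas control replicate 1 stood apart in the data. These rates may therefore not hold for these libraries. Alternatives covered the pseudocount, filter, scaling, trend, library weights, replicate block, shared symbols, threshold and each library left out.

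The members and gene lists were chosen with earlier results of these data known. Named were the members, Mll1, up to 3 tested genes of smallest p per list, a fixed set of partners, overlapping or adjoining genes, and for members spanning over 1 (log2) the 2 genes nearest in profile; Rab32, Tpm4, Gata2 and Prkca, and Gucy1a3 and Gucy1b3, were named after their values were seen. Overlaps came from GENCODE M21 (GRCm38), in which 26606 gene IDs matched.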

Additional observations from a re-analysis of the deposited data

How the results depend on the processing

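The number of members called was 1 of 7 as reported. It was 2 with a pseudocount of 0.1, after quantile normalization, with rows that share a symbol summed and at an adjusted p under 0.1, where Mrvi1 joined Plek each time. Mrvi1 entered the test through the controls alone, so its calls under any setting are no support for a difference. It was 4 with library weights and 0 at an adjusted p under 0.01. Leaving out each library in turn gave 0 to 4 members, with 4 without control replicate 1 and limma calling 0 without each of the others, where 2 members of 7 had an unadjusted p under 0.05, as did 14.2% to 26.3% of all genes. Of the pathway genes, 35 were called as reported (9.79% of all genes were) and 71 with library weights (37.3% of all genes). With no filter on low values 22 were called, and over all 22571 genes 238 rose and 259 fell. At an adjusted p under 0.01, 5 were called. Without control replicate 1, 65 were called (29.8% of all genes). Leaving out control replicate 2 gave 5 (over all genes 45 rose and 66 fell), and control replicate 3 gave 8 (70 rose and 134 fell). No count of pathway genes is given for the fits with 1 knockout library left, where that group had no spread of its own. With the replicate number as a block, limma called 0 members (3 at an unadjusted p under 0.05) and 0 pathway genes (49), and 21.5% of all genes were under it. The labels give no pairing, and the correlation of deviations between control and knockout libraries of the same number was 0.037 and 0.012. The change of Mll1 kept its direction and was not called in all 15 alternatives. Pf4 changed sign with library weights (0.30), and over the fits that left out 1 library it ranged from -0.46 to 0.24, with positive values when control replicate 1 (0.24) or knockout replicate 2 (0.06) was left out. F2r ranged from -0.07 to 0.17 over these fits, with negative values when control replicate 2 (-0.01) or knockout replicate 1 (-0.07) was left out. The cause was not tested, beyond the fewer samples of the fits that left a library out. Over all genes, 39.0% of calls were rises as reported and 49.0% after median-ratio scaling. Where 1 knockout library was left out, the lone library was assumed to vary like the controls. Depth is unknown, which limits Ppbp, Vwf, Gp1bb, Gp9 and Mrvi1, all below 3 FPKM.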
